A study of Mus musculus with 8 samples.

Results

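Intrinsic factor, the gastric protein that binds vitamin B12 (cobalamin) in the gut, and 8 further genes of vitamin B12 uptake, transport and use were followed in the RNA of mouse small intestinal crypts. The 9 genes were found by symbol among 55880 genes of the deposited table: Cblif, Cubn, Amn, Tcn2, Cd320, Lmbrd1, Mmachc, Mtr and Mtrr. The study compared 4 libraries labelled miR-29ab1-/- (KO) with 4 labelled wild type (WT), all from C57BL/6N mice and, by the series title, taken before irradiation. The labels give no age, sex, litter or number of animals per library, so p-values measure only the spread between these libraries, which may be technical. Cblif was chosen because of its difference between KO and WT in these same libraries, so its values in that contrast, the p-values and calls that chose it included, are given as a description and support nothing further. The other 8 genes were chosen by their role, after Cblif.

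Dietary vitamin B12 is bound in the gut by intrinsic factor, and the complex is taken up in the distal small intestine by a receptor made of cubilin and amnionless. The vitamin then passes into blood on transcobalamin, enters cells through the CD320 receptor, leaves the lysosome and is processed to the cofactors of methionine synthase and methylmalonyl-CoA mutase. In the mouse, intrinsic factor is made mainly by chief cells of the stomach, whereas crypts of the small intestine hold stem cells, dividing progenitors and Paneth cells.

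The labels were checked on the targeted locus first. Mir29b-1 had 2, 5, 7 and 3 counts in the libraries labelled KO and 0 in each library labelled WT, and Mir29a had 0 counts in all 8 libraries. Neighbours of Mir29b-1 also separated the groups, in the same direction as Mir29b-1. Lncpint had 1831, 2608, 1942 and 2027 counts in KO, against 12, 11, 16 and 11 in WT. Gm27019 had 227, 327, 290 and 252 counts in KO, against 0 in each WT library. Mir29b-1 (31063023 to 31063093) and Gm27019 (31063092 to 31063495) overlap on the minus strand of chromosome 6. The labels do not say which bases were deleted, and the source of the Mir29b-1 counts in KO was not tested. These libraries do not measure mature microRNAs, so KO and WT stand below for the labels alone. Mir29b-2 and Mir29c, the family members on chromosome 1, also had 0 counts throughout. Total counts per library ran from 13879472 to 17368666. Of the 14897 genes tested, 3 passed an adjusted p of 0.05 (edgeR quasi-likelihood test), namely Cblif and these noncoding genes Lncpint and Gm27019 beside the targeted locus on chromosome 6, all higher in KO.

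The microRNAs of this family are printed from RefSeq (GRCm38.p6) because the KO label names their genes. Capitals mark the seed, bases 2 to 8, which pairs with targets and is the same AGCACCA in all of them.
miR-29a-3p: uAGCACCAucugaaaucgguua
miR-29b-3p: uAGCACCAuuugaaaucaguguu
miR-29c-3p: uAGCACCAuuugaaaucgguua
Only the longest annotated 3' UTR of each gene (GENCODE M21) was searched. The 7-base complement of that seed, TGGTGCT, was found there in 0 of the 9 genes and in 2754 of 20644 genes searched (13.3%). The shorter 6-base match GGTGCT, looked for after the 7-base search, was in Cblif alone of the 9 and in 28.8% of all genes searched. It lay at base 147 of a 190-base 3' UTR on chromosome 19, of which only the 30 bases around the match are printed.
Cblif 3' UTR, with the 6-base match in capitals: ataaatgatgcaGGTGCTcaccattgtgac
A match of these letters is a description and shows neither binding nor its absence.

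RefSeq promoter windows of 300 bases (GRCm38.p6) were present in the table used for 8 of the 9 genes. Those of Cblif and Mtr are shown because they lie far apart in CpG content, and that of Cubn because it is the receptor gene for the same ligand. Capitals mark each CG dinucleotide.
Cblif, chr19:11747309-11747608, plus strand: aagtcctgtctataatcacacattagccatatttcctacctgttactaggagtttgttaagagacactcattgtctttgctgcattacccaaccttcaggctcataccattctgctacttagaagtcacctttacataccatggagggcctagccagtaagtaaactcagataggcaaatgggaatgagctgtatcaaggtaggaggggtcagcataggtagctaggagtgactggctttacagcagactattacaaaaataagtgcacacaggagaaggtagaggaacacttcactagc
Cubn, chr2:13491827-13492126, minus strand: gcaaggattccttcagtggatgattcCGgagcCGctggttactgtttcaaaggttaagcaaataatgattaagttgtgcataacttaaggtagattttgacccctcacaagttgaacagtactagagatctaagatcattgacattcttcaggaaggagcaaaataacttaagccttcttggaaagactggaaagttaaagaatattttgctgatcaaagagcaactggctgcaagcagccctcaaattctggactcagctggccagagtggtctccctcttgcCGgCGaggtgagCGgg
Mtr, chr13:12258064-12258363, minus strand: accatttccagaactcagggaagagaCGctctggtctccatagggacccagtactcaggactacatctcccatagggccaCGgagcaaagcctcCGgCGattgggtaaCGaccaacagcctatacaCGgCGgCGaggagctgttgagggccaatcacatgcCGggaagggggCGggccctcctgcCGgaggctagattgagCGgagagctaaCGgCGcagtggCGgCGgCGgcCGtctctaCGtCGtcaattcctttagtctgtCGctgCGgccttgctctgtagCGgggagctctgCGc
The Cblif window held 0 CG dinucleotides, the Cubn window 5 and the Mtr window 24, against a median of 7 (quartiles 3 and 20) over 32851 promoters. Other windows of the set held 15 (Amn and Mmachc) to 39 (Mtrr), apart from one of Cd320 with 13. TATAAA (in 13.6% of all promoters on either strand), AGATAA (11.2%), TTTATNG (10.9%), CAAAGTC (4.44%) and GTTAAT (7.1%) were searched on both strands. None of them was found in the Cblif, Cubn or Amn window, and the single match among the 9 genes was TATAAA at -221 in a Lmbrd1 window.

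Cblif (ENSMUSG00000024682, chromosome 19, 11747554 to 11763447, plus strand, GRCm38), which encodes intrinsic factor, was read at a moderate level in every library labelled KO and hardly at all in those labelled WT. Read counts were 334, 166, 130 and 145 in KO 1 to 4, against 15, 6, 3 and 11 in WT 1 to 4. Scaled by library size (CPM), this was 24.5, 10.8, 7.66 and 11.4 CPM in KO and 0.919, 0.376, 0.175 and 0.740 CPM in WT. The groups did not overlap, and KO 1 was the highest library. Of all genes tested, 1.53% had groups that did not overlap. Cblif averaged 13.6 ± 7.48 CPM in KO and 0.553 ± 0.338 CPM in WT (SD, n = 4 each). The fitted log2 fold change was 4.61 (SE 0.53), or 24.4-fold. These values chose the gene: the authors' deposited table gives a log2 fold change of 4.63 with an adjusted p of 1.62e-16, and the edgeR fit gives an adjusted p of 0.0496. The edgeR call ended when any of 7 of the 8 libraries was left out, while the log2 fold change stayed between 4.16 and 4.98.

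**Figure D1:**
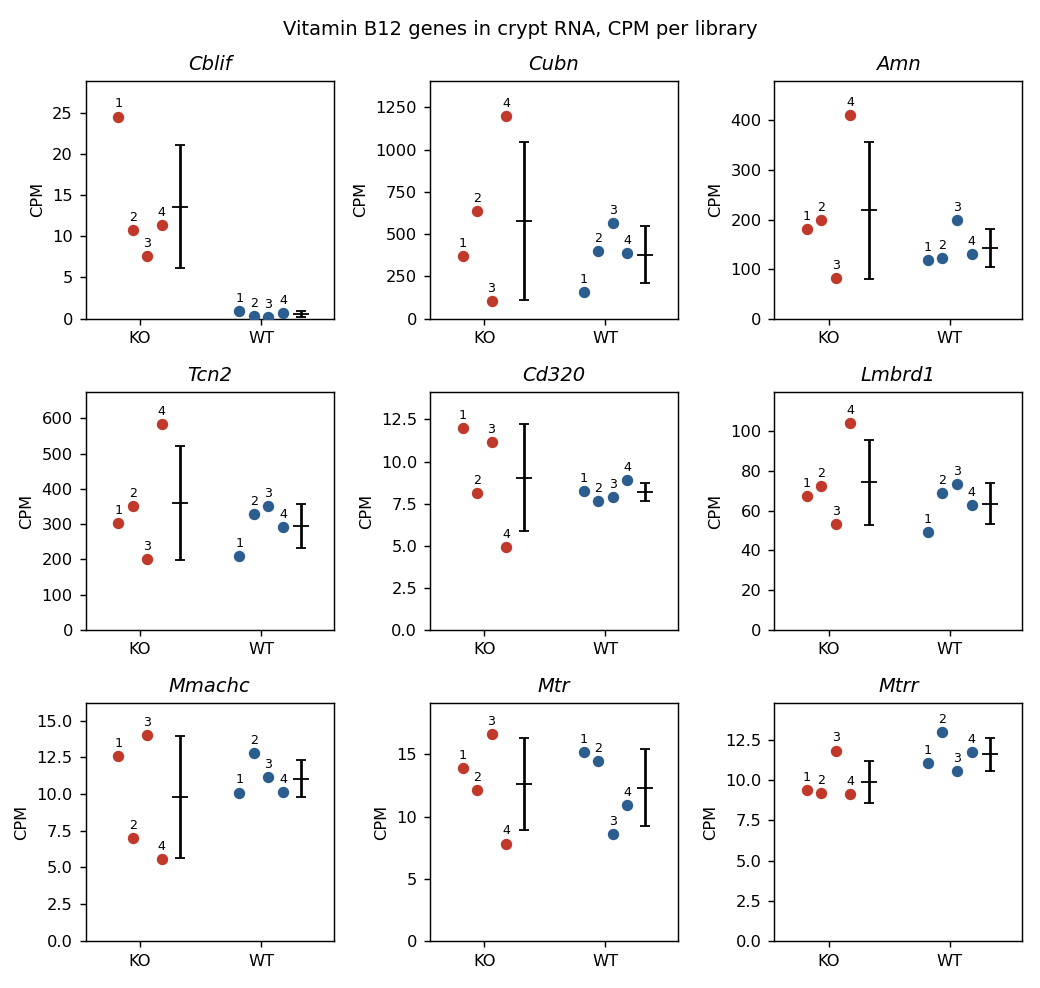
CPM of each of the 9 genes (one panel each, y axis from 0) in 4 KO and 4 WT libraries, numbered by replicate, with the mean and SD beside them. Cblif lies at 7.66 to 24.5 CPM in KO and 0.175 to 0.919 CPM in WT, whereas the groups of every other gene overlap.

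Markers of the stomach, the known source of intrinsic factor, are given beside Cblif. Of 22 gastric epithelial markers, 6 passed the filter on low counts and none passed the edgeR test, and 7 had 0 counts in every library (Lipf, Gkn1, Gkn2, Tff1, Gast, Vsig1 and Sox2). Pgc, the pepsinogen C gene of chief cells, named for that role after its values were seen, averaged 1.44 ± 0.836 CPM in KO and 1.10 ± 0.174 CPM in WT. Atp4a, the acid pump of parietal cells, averaged 0.489 ± 0.315 CPM in KO and 0.893 ± 0.287 CPM in WT. The summed list ran from 33.5 to 91.5 CPM in KO and from 38.8 to 67.4 CPM in WT, and most of it was Bhlha15, a transcription factor of secretory cells, and Gkn3. The list's highest library was KO 2, whereas Cblif was highest in KO 1. Of 16 pancreatic acinar markers, Cpa1, Try4, Cela2a and Pnlip were at 0 throughout, and none passed the test. Others of this list were present, the highest being Clps (mean 266 CPM over all libraries) and Rnase1 (54.9 CPM). The 16 acinar markers summed to 96.6 to 481 CPM in KO and 171 to 514 CPM in WT. In bulk RNA, fewer cells of a type and less RNA per cell cannot be told apart.

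**Figure D2:**
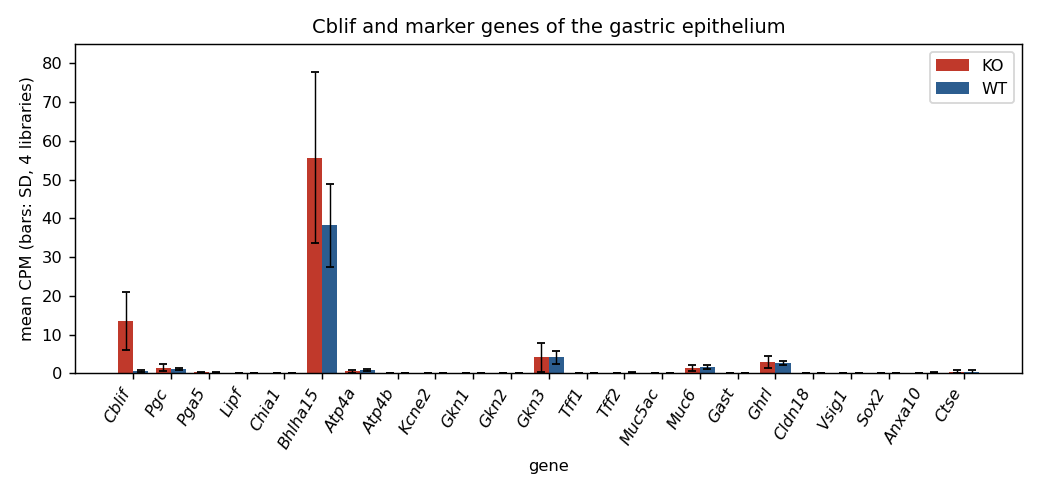
Mean CPM with SD (n = 4 each) of Cblif and of 22 gastric epithelial marker genes in KO and WT libraries. Cblif stands at 13.6 CPM in KO and 0.553 CPM in WT, while Bhlha15 is the one marker above it in KO.

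Annotated genes around Cblif were examined in a window of 200 kb on each side, chosen after the data were seen. Of 24 such genes 3 passed the filter, and none passed the edgeR test. Their log2 fold changes were 0.35 for Stx3, -0.052 for Patl1 and -0.17 for Mrpl16.

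The receptor genes Cubn and Amn were both abundant and spread widely between libraries. Cubn (chromosome 2, 13276338 to 13491813, minus strand) encodes cubilin, which binds the intrinsic factor complex. It had 369, 639, 105 and 1200 CPM in KO, against 159, 397, 568 and 390 CPM in WT. KO 4 was the highest library and KO 3 the lowest, so KO spanned the whole WT range. The log2 fold change of KO over WT was 0.61 (SE 0.64, edgeR adjusted p = 0.994), and it was -0.030 without KO 4. Amn (chromosome 12, 111271095 to 111276426, plus strand) encodes amnionless, the membrane anchor of cubilin. It had 181, 199, 82.0 and 412 CPM in KO, against 118, 123, 199 and 131 CPM in WT, again with KO 4 highest and KO 3 lowest. For Amn the log2 fold change was 0.61 (SE 0.42, edgeR adjusted p = 0.994), and it was 0.11 without KO 4. Approximate 95% intervals were -0.64 to 1.86 for Cubn and -0.20 to 1.43 for Amn, so a doubling of either gene in KO was within the interval. Cubn overlaps the antisense gene Gm13270, which had 15 counts in KO and 20 in WT in all, and no source used here gives the strand setting of the counting.

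Among the transport genes, Tcn2 (chromosome 11, 3917192 to 3932159, minus strand), which encodes the blood carrier transcobalamin, had 304, 352, 201 and 583 CPM in KO, against 210, 330, 351 and 291 CPM in WT. KO 4 was highest and KO 3 lowest for Tcn2 too. The Tcn2 difference, 0.28 on the log2 scale (SE 0.31, edgeR adjusted p = 0.994), turned to -0.048 without KO 4. Cd320 (chromosome 17, 33843091 to 33849774, plus strand), the cellular receptor for transcobalamin, had 11.98, 8.13, 11.1 and 4.93 CPM in KO, against 8.27, 7.65, 7.89 and 8.88 CPM in WT. The 4 WT libraries lay close together (SD 0.535 CPM), and KO reached both above and below them (SD 3.20 CPM). Its difference, 0.15 on the log2 scale (SE 0.26, edgeR adjusted p = 0.994), was -0.014 without KO 1. Lmbrd1 (chromosome 1, 24678630 to 24766301, plus strand), which takes part in export of the vitamin from lysosomes, had 67.5, 72.4, 53.2 and 104 CPM in KO, against 49.3, 69.0, 73.2 and 62.7 CPM in WT. KO 4 was the highest library and WT 1 the lowest, and KO over WT was 0.22 on the log2 scale (SE 0.21, edgeR adjusted p = 0.994). That value was 0.019 without KO 4 and 0.35 without KO 3.

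Of the genes of processing and use, Mmachc (chromosome 4, 116702279 to 116708406, minus strand), whose product prepares the incoming vitamin for cofactor synthesis, averaged 9.79 ± 4.13 CPM in KO and 11.1 ± 1.26 CPM in WT. Its 4 KO libraries had 12.6, 7.02, 14.0 and 5.56 CPM, with both the highest and the lowest of the 8 values. The log2 fold change of Mmachc was -0.17 (SE 0.29, edgeR adjusted p = 0.994), and it was 0.023 without KO 4. Mtr (chromosome 13, 12182712 to 12258113, minus strand), methionine synthase, had 13.9, 12.1, 16.6 and 7.83 CPM in KO, against 15.2, 14.5, 8.60 and 10.96 CPM in WT, which left KO over WT at 0.037 on the log2 scale (SE 0.26, edgeR adjusted p = 0.995). Mtrr (chromosome 13, 68560780 to 68582149, minus strand), which reactivates methionine synthase, had 9.41, 9.17, 11.8 and 9.16 CPM in KO, against 11.1, 12.98, 10.6 and 11.8 CPM in WT. KO 3 was the only KO library inside the WT range of Mtrr, for which KO over WT was -0.23 on the log2 scale (SE 0.15, edgeR adjusted p = 0.994).

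All 9 genes passed the filter on low counts, and 1 passed the edgeR test, Cblif, against 0.0201% of all genes tested. Since Cblif was chosen by that contrast, nothing is read from this count. Of the other 8, none passed the edgeR test and none had an unadjusted p under 0.05, 6 log2 fold changes were positive and 2 negative, and their median was 0.19. Over all genes tested the median was 0.011, 52.0% lay above 0, and 402 had an unadjusted p under 0.05. None of the 8 passed under any alternative setting tried, DESeq2 and limma-voom included. With DESeq2 the count for the 9 genes was 1, again Cblif, where 0.148% of genes tested passed in either direction and 0.128% passed as higher in KO. With limma-voom the count was 0, where 0.0134% passed, all of them as higher in KO.

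**Figure D3:**
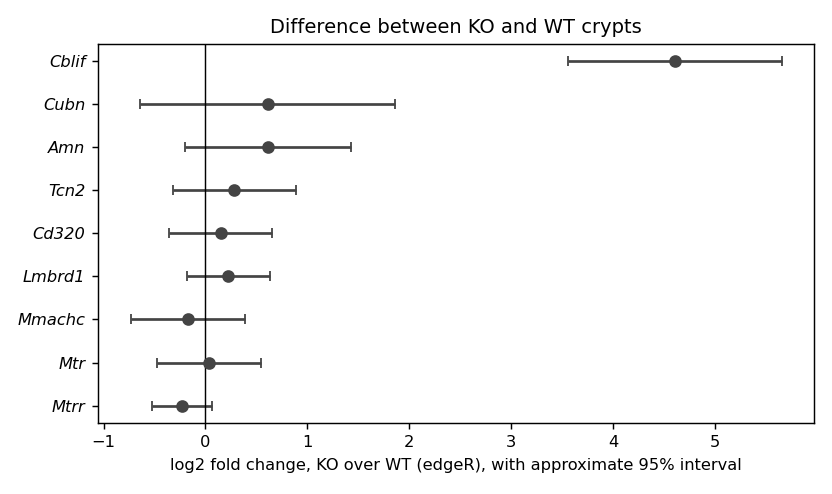
Fitted log2 fold change of KO over WT (x axis) for the 9 genes, with an approximate 95% interval from the SE. The interval of Cblif lies at 3.56 to 5.66, and each of the other 8 intervals includes 0.

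Levels of different genes were compared per length, on the authors' deposited FPKM values. Over all 8 libraries Tcn2 was highest at 149 ± 54.7 FPKM (SD, n = 8), followed by Amn at 97.3, Cubn at 31.8, Lmbrd1 at 11.5, Mmachc at 4.65, Cd320 at 2.96, Mtrr at 2.05 and Mtr at 1.45 FPKM. Each of the 7 neighbouring pairs in this order differed within libraries (exact two-sided sign-flip permutation test, adjusted p = 0.0109 or 0.0156, where the smallest unadjusted p possible is 0.0078). The order was taken from these same libraries, so low p-values follow in part from it and do not test an order fixed beforehand. The SD of the log2 difference within a pair ran from 0.28 for Mmachc over Cd320 to 0.82 for Cubn over Lmbrd1. The higher gene led in 8 of 8 libraries in 5 pairs and in 7 of 8 for Cubn over Lmbrd1 and Cd320 over Mtrr. The mean differences ran from 1.41-fold for Cd320 over Mtrr to 3.46-fold for Amn over Cubn. Cblif stood at 8.77 ± 4.82 FPKM in KO, rank 5 of the 9 genes and above 65.5% of all genes tested. In WT it stood at 0.355 ± 0.216 FPKM, last of the 9 and above 7.34% of genes tested. The genes tested had passed a filter on low counts, which Cblif met through its KO libraries. A low place in WT among them follows from that filter, so both shares are descriptions only.

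**Figure D4:**
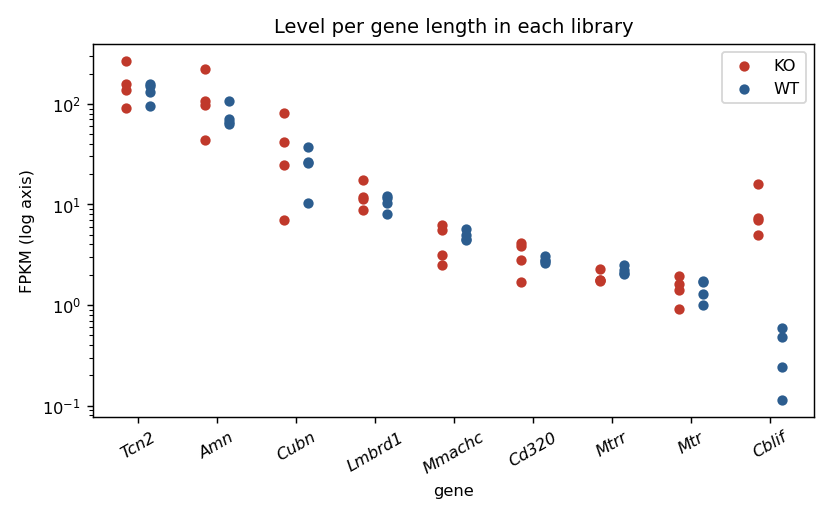
FPKM (log axis) of the 9 genes in each library, ordered by level, with KO points left of WT points and Cblif set last. The 8 other genes keep overlapping KO and WT points from 149 FPKM for Tcn2 down to 1.45 FPKM for Mtr.

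The 8 genes other than Cblif moved between libraries in opposing sets, to which Mtrr was only loosely tied. Cubn, Amn, Tcn2 and Lmbrd1 were highest in KO 4, and Tcn2 and Lmbrd1 had a correlation of 0.99 over the 8 libraries in log2 CPM. Cd320, Mmachc and Mtr were lowest in KO 4, and so was Mtrr, at 9.16 CPM, although KO 2 (9.17 CPM) and KO 1 (9.41 CPM) lay close to it. Cubn and Mtr had a correlation of -0.84, the lowest among the 8 genes, as 0.99 was the highest. Mtrr had correlations of 0.23 with Cd320, 0.47 with Mtr and 0.67 with Mmachc. With the first set its correlations ran from -0.54 (Tcn2) to -0.77 (Amn). These points share libraries and depth and are given as descriptions. The summed enterocyte markers moved with the first set, at 20728, 24434, 9737 and 57993 CPM in KO and 13589, 23299, 24619 and 19783 CPM in WT. The summed cell cycle genes were also lowest in KO 4, at 1548, 1296, 1943 and 820 CPM in KO and 1970, 1702, 1422 and 1796 CPM in WT. The part of these cell types in the values of the 8 genes was not tested.

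**Figure D5:**
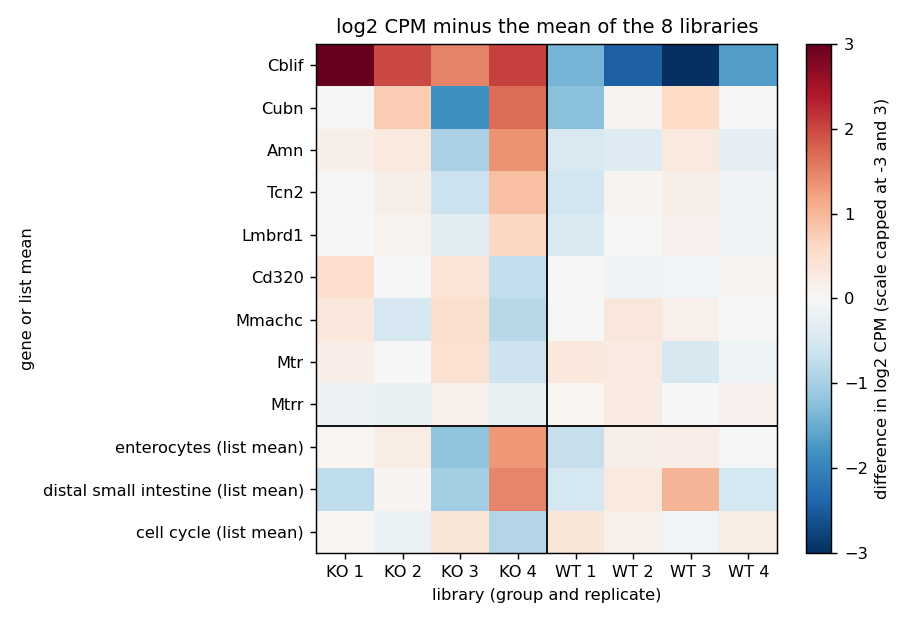
Centred log2 CPM of the 9 genes and of the mean of 3 marker lists (rows) in 4 KO and 4 WT libraries (columns), red above and blue below each row's mean. Cubn, Amn, Tcn2 and Lmbrd1 are red in KO 4 with the enterocyte mean, while Cd320, Mmachc and Mtr are blue there with the cell cycle mean.

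Of 4 relations tested over the 8 libraries, that of Cubn with Amn, the subunits of the same receptor, was the closest (Pearson r = 0.911, exact permutation p = 5.46e-04, adjusted p = 0.00218; Spearman rho = 0.905, adjusted p = 0.0183). Without KO 3 and KO 4, the libraries farthest from the median, r was 0.742 and no longer passed (exact permutation, adjusted p = 0.122). Without either of them alone it was 0.870 and 0.881 (exact permutation, adjusted p = 0.0175 each). In both cases rho was 0.857 and did not pass (exact permutation, adjusted p = 0.0952 each). The receptor pair did not stand apart from other genes of the set. With no test run, Cubn had r = 0.967 with Tcn2 and 0.935 with Lmbrd1, and Amn had 0.929 and 0.914 with them. Against the mean of distal small intestine markers, Cubn had r = 0.823 (exact permutation, adjusted p = 0.0108) and rho = 0.857 (adjusted p = 0.0214). Without KO 3 its adjusted p was 0.0667 and without KO 4 it was 0.0786 (exact permutation). Amn with the same mean had r = 0.80 (exact permutation, adjusted p = 0.0249), but rho = 0.667 did not pass (adjusted p = 0.111). That call was also lost without KO 3, KO 4 or WT 3 (exact permutation, adjusted p = 0.106, 0.182 and 0.0709). Without KO 4 and WT 3, the farthest libraries, r was 0.697 for Cubn (exact permutation, adjusted p = 0.211) and 0.432 for Amn (adjusted p = 0.496). The distal and the enterocyte list sums were both highest in KO 4 and lowest in KO 3. A relation of Cubn or Amn with the enterocyte list was not tested, so nothing particular to distal markers is read from these values. Cd320 with the mean of cell cycle genes did not pass (r = 0.779, exact permutation, adjusted p = 0.0673; rho = 0.595, adjusted p = 0.132). Its r was 0.171 without the farthest libraries KO 2 and KO 4 (exact permutation, adjusted p = 0.761). In deviations from the group means r was 0.913 (permutation over all libraries, adjusted p = 0.00784). Deviations within a group sum to 0 and were permuted across groups, so that p is approximate and may be too small. Nothing is read from it.

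The neighbouring pathways showed no call. Of 15 other genes of vitamin B12 metabolism, 14 passed the filter and 0 passed the edgeR test, with 6 above 0, 8 below and a median log2 fold change of -0.025 (-0.078 to -0.0059 with a library left out, lowest without KO 1 and highest without WT 3). Mmab, which makes the mitochondrial cofactor form, had a log2 fold change of -0.36, Mmut, methylmalonyl-CoA mutase, -0.13, and Dab2, an endocytic adaptor, 0.91. Of 30 genes of the folate and methionine cycles, 26 passed the filter and 0 passed the test, and the median was -0.14 with 10 above 0 and 16 below. An unadjusted edgeR p under 0.05 was found for 4 of these 26 genes, against 402 of all 14897 genes tested. Whether the list differs from all genes was not tested. Without KO 4 that median was -0.018. The smallest p-values in that list belonged to Bhmt2, a methyltransferase that makes methionine without vitamin B12 (1.91 ± 1.03 CPM in KO and 0.507 ± 0.276 CPM in WT, log2 fold change 1.90, SE 0.56), Gnmt, glycine N-methyltransferase (0.86, SE 0.26), and Slc19a1, the reduced folate carrier (0.46, SE 0.16), each with an edgeR adjusted p of 0.994.

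The labelled tissue was checked against its markers. Crypt stem cell markers were present, Olfm4 at 1864 ± 775 CPM in KO and 1983 ± 653 CPM in WT and Lgr5 at 65.0 ± 22.8 CPM in KO and 52.3 ± 14.9 CPM in WT. Paneth cell markers summed to 18952 to 60426 CPM in KO and 20808 to 27524 CPM in WT, with 8 of 8 log2 fold changes above 0 and a median of 0.49. Enterocyte markers had 7 of 8 above 0 (median 0.43), red blood cell genes 4 of 4 tested (median 1.47), cell cycle genes 1 of 19 (median -0.30) and immune cell genes 0 of 10 tested (median -0.38). Red blood cell genes summed to 8.90 to 55.1 CPM in KO and 2.69 to 15.03 CPM in WT, and immune cell genes to 67.4 to 119 CPM in KO and 89.3 to 161 CPM in WT. Distal small intestine markers summed to 182 to 1109 CPM in KO and 272 to 932 CPM in WT, and proximal ones to 1176 to 3458 CPM in KO and 1349 to 2691 CPM in WT. Goblet cell, enteroendocrine and stromal lists also overlapped between groups, and no gene of any of these lists passed the edgeR test. The part of these lists in the level of Cblif was not tested.

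The protein-coding genes whose log2 CPM followed Cblif most closely over the 8 libraries, of 12526 ranked, were Fam210b (r = 0.988), Hexa (0.972), Trp53inp1 (0.958), Osbp2 (0.934) and Fnip2 (0.934). The KO and WT values of these 5 genes did not overlap, which follows from ranking them against a gene whose groups separate. In deviations from the group means the closest were Phf7 (r = 0.995), Zfp229, Ift46, Fam53b and Acvr2b. For Cubn the closest were Epb41l3 (r = 0.991), Cdipt, Igsf3, Exoc3l4 and Gabarap (0.988). Every set here holds the 5 highest of 12526 correlations over 8 libraries, so high r values follow from the ranking and were not tested.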

How the data were processed

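Total RNA was extracted by the TRIzol method and made into libraries with a directional (strand-keeping) kit, per the labels' protocols. The submitters' processing notes name HISAT2 and DESeq2 with no version. No counter, strand setting or genome build is given in the sources used here. The authors deposited whole-number counts per gene, FPKM values, group means (a normalized signal), log2 fold changes and p-values, per the file headers. The FPKM values equal counts over gene length times a library factor, as checked on the values. Coordinates of all 9 genes, matched by identifier, are identical in GENCODE M21 (GRCm38).

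The test on counts was the quasi-likelihood test of edgeR 4.0.16 (R 4.3.3; robust dispersion, TMM, filterByExpr) with Benjamini-Hochberg adjustment over all 14897 genes tested. The SE was derived from the log2 fold change and the F statistic, so it and the 95% intervals are approximate. CPM use TMM library sizes, and log2 CPM a prior count of 2. The 9 genes and the 15 gene lists were chosen with earlier results of these data known. Genes named from the lists are those with the highest CPM or the smallest p, by a written rule, apart from genes at 0 and Pgc, beside the genes most correlated with Cblif and Cubn. The longest annotated 3' UTR of each gene was searched, and 3' UTRs under 50 bases were not. No libraries of the same group agreed within sampling noise (chi-square of counts per degree of freedom at least 28.9). Same-numbered KO and WT libraries did not deviate together, so the numbers were taken not to pair them. The alternatives tried were DESeq2 1.42.0, RLE size factors, limma-voom 3.58.1, no filter, a filter of 5 CPM in 4 libraries, a replicate block, each library left out, and, chosen after the data were seen, KO 3 and KO 4 left out together.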

Additional observations from a re-analysis of the deposited data

Results flagged for a closer look

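Among 18 groups of 4 libraries examined (9 genes in KO and in WT), a library stood far from the other 3 in 2. The limit used is passed by about 1 in 20 groups of independent, normally distributed values. These 18 groups share libraries and correlated genes, and the share over all genes was not computed. No excess is therefore read from the 2. Mtrr was at 11.8 CPM in KO 3, against 9.16 to 9.41 CPM in the other KO libraries. Amn was at 199 CPM in WT 3, against 118 to 131 CPM in the other WT libraries. In WT 3 the summed distal small intestine markers were also the highest of the WT libraries, at 932 CPM, and their part in the Amn value was not tested.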

How the results depend on the processing

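Of 276 alternative values, 246 were rated the same. Fold changes and correlations so rated kept their direction and, where a test was attached, their side of the threshold. Counts of genes called have no direction, and 2 genes called over all genes, against 3, were also rated the same. The log2 fold change of Cblif was judged by direction alone. Cblif, the single gene called of the 9, was not called (0 genes) with RLE size factors, with limma-voom, without KO 3 and KO 4 together, or with any library but KO 3 left out (0 to 1 genes). Its log2 fold change was 4.16 to 4.98 with a library left out, and its adjusted p ran from 4.85e-16 with DESeq2 to 0.330. The cause was not tested. Over all genes, DESeq2 called 22 and the fit with no filter 5, against 3, and leaving out a library gave 2 to 3. With the replicate block, the count for the 9 genes was 1, that over all genes 2, and the log2 fold change of Cblif 4.64, and same-numbered libraries had deviations correlated at 0.0745, 0.0345, -0.388 and -0.0871. 1 of 4 KO libraries correlated best with the WT library of its own number. With a library left out, log2 fold changes ran up to 0.96 for Cubn, 0.48 for Tcn2, 0.35 for Cd320 and 0.21 for Mtr, and down to -0.40 for Mmachc, and were 0.019 to 0.35 for Lmbrd1. List medians ran from -0.18 to -0.018 for folate and methionine genes. Directions that turned belong to genes that passed no test: Cubn -0.030, Tcn2 -0.048 and Mmachc 0.023 without KO 4, Cd320 -0.014 and Mtr -0.011 without KO 1, and Mtr -0.13 without KO 3, -0.10 without WT 3 and -0.014 without WT 4. Without the 2 farthest libraries r was 0.742 for Cubn with Amn, 0.697 for Cubn with distal markers, 0.432 for Amn with distal markers and 0.171 for Cd320 with cell cycle genes. With a library left out it was 0.870 to 0.942, 0.706 to 0.873 and 0.598 to 0.893, and for Cd320 with cell cycle genes 0.294 to 0.892, against 0.913 in deviations from the group means. WT counts of Cblif, 35 in all, limit the precision of its fold change.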
